A study of Mus musculus with 9 samples.

Results

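The genes described here are 10 autosomal genes that were transcribed in MA9-IL-34 leukemia cells and nearly silent in MA9 leukemia cells. They were chosen from the measured values, as the genes at 10 TPM or more in each of the 3 MA9-IL-34 libraries and under 1 TPM in each of the 6 MA9 libraries. TPM is the share of a library's transcripts that a gene takes, corrected for gene length and scaled to the same total in every library. Of the 55536 genes in the deposited table, these 10 met the rule: Ces1d, Arhgef38, Gal3st1, Lpcat2, Col6a3, Rgs5, Cyp2a5, Sdk1, Nme9 and AU017674. Since these values made the choice, the contrast between MA9-IL-34 and MA9 cells is given for them as a description, without a test.

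All cells came from the MLL-AF9 mouse model of acute myeloid leukemia (AML), in which lineage-negative hematopoietic cells of C57B6.SJL (CD45.1) mice carry an MSCV-MLL-AF9-GFP retrovirus. GFP+ leukemia cells were infected a second time, with pMSCV-IL-34-PGK-BFP to give MA9-IL-34 cells or with the blank pMSCV-PGK-BFP to give MA9 cells, so both GFP and BFP were carried by all groups. Unirradiated C57BL/6J mice, 6 to 8 weeks old, received 100000 GFP+BFP+ cells each, and leukemia cells were sorted from the bone marrow on day 18. The study's methods name female mice for both strains and give a narrower range of ages than the labels. The 3 groups were MA9-IL-34 cells (c-Kit+ cells per the labels), MA9-c-Kit+ cells and MA9-c-Kit- cells, with 3 libraries each. IL-34 was driven by the retroviral vector in the leukemia cells themselves. The sources do not say whether separate mice gave the 3 libraries, so their spread, and every p-value below, may be technical only.

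IL-34 is a ligand of the receptor CSF-1R, which it shares with M-CSF and which controls survival and maturation of monocytes and macrophages. MLL-AF9 leukemia cells are blocked at an immature myeloid stage and keep an open program of HOX and MEIS genes. None of the 9 protein-coding genes among the 10 is a defining gene of the myeloid lineage. They encode 3 enzymes of lipid metabolism, a drug-metabolizing cytochrome P450, 2 regulators of G protein signaling pathways, a matrix collagen, an adhesion molecule and a protein of the nucleoside diphosphate kinase family, and the last gene makes a long noncoding RNA.

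Kit, the receptor used for the sort, was at 112, 90.5 and 111 TPM in MA9-IL-34 libraries, 135, 117 and 70.6 TPM in MA9-c-Kit+ libraries and 2.46, 2.90 and 1.63 TPM in MA9-c-Kit- libraries. Mouse Il34 was listed at 0.10 to 0.14 TPM in MA9-IL-34 libraries and at 0 in the others, and these values may not measure the retroviral IL-34, for which the study's primers target the human gene. The MA9-IL-34 and MA9 cells also differed in Xist, the noncoding RNA that silences the inactive X chromosome. Xist was at 453, 331 and 371 TPM in MA9-IL-34 libraries and at 0.28 TPM or less in each MA9 library, while the Y-linked genes Ddx3y, Eif2s3y, Kdm5d and Uty were at 0.10 TPM or less in all 9 libraries. The cells thus differed in Xist as well as in IL-34, and the 2 cannot be told apart in any value below. Erythroid genes summed to 2368 TPM in MA9-c-Kit- replicate 3, against 14.6 TPM in the lowest library of that group, and Csf1r was at 141 TPM in MA9-c-Kit+ replicate 2, against 40.8 and 25.6 TPM in the other 2 libraries.

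Together the 10 genes took 239, 219 and 222 TPM in MA9-IL-34 libraries, against 3.99, 2.32 and 1.63 TPM in MA9-c-Kit+ libraries and 0.70, 0.94 and 1.26 TPM in MA9-c-Kit- libraries. Of the 60 values in the 6 MA9 libraries, 13 were 0 and 36 were at 0.10 TPM or less, and the highest was 0.88 TPM. The genes lay on 8 chromosomes. All 10 passed the filter on low values (1 TPM or more in at least 3 libraries), and they passed it through the MA9-IL-34 libraries alone. Positions are those of GENCODE M21 on GRCm38.

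**Figure D1:**
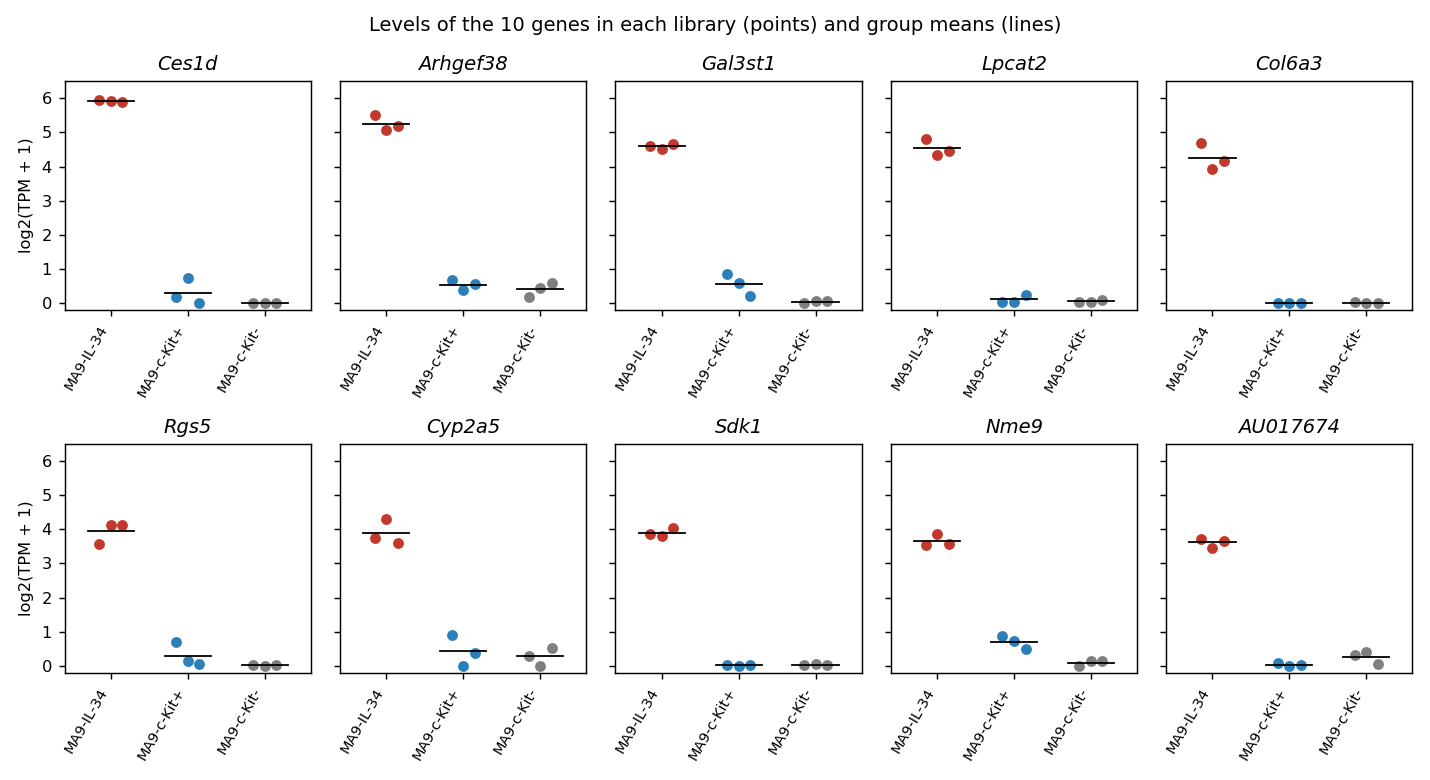
Each panel shows log2(TPM + 1) of 1 gene in the 9 libraries, 3 for each of MA9-IL-34, MA9-c-Kit+ and MA9-c-Kit- (points), with the group mean on that scale (line). The MA9-IL-34 libraries of all 10 genes sit at 10.03 TPM or more and the MA9 libraries at 0.88 TPM or less, as the selection requires, and Ces1d is the highest and most even of the 10.

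Ces1d encodes a carboxylesterase of the endoplasmic reticulum that hydrolyzes stored triacylglycerol, known in mouse from liver and adipose tissue (chromosome 8, 93166068 to 93197838, minus strand). It was at 60.4, 59.1 and 58.7 TPM in MA9-IL-34 libraries, 0.13, 0.68 and 0 TPM in MA9-c-Kit+ libraries and 0 TPM in each MA9-c-Kit- library. This was the highest level of the 10, with a coefficient of variation of 1.47% over the 3 MA9-IL-34 libraries, and 79.5% of the 12662 genes that averaged 1 TPM or more in MA9-IL-34 cells lay below it. On the log2(TPM + 1) scale the difference from MA9-c-Kit+ cells was 5.61. Against MA9-c-Kit- cells, where Ces1d was listed at 0, no fold is given.

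Lpcat2 encodes an acyltransferase that rebuilds phosphatidylcholine and makes platelet-activating factor (PAF), a lipid mediator of inflammation (chromosome 8, 92855339 to 92919279, plus strand). Its levels were 27.1, 19.3 and 20.8 TPM in MA9-IL-34 libraries, 0.03, 0.03 and 0.19 TPM in MA9-c-Kit+ libraries and 0.03, 0.03 and 0.06 TPM in MA9-c-Kit- libraries. Gal3st1 encodes the sulfotransferase that makes sulfatide, a lipid of myelin and kidney (chromosome 11, 3983636 to 3999326, plus strand). It was at 23.2, 21.9 and 24.4 TPM in MA9-IL-34 libraries, 0.80, 0.52 and 0.15 TPM in MA9-c-Kit+ libraries and 0, 0.05 and 0.04 TPM in MA9-c-Kit- libraries. On the log2(TPM + 1) scale MA9-IL-34 cells exceeded MA9-c-Kit+ cells by 4.42 and MA9-c-Kit- cells by 4.48 for Lpcat2. For Gal3st1 these differences were 4.04 and 4.55.

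Cyp2a5 encodes a cytochrome P450 that hydroxylates coumarin and nicotine, known in mouse from liver and olfactory mucosa (chromosome 7, 26835305 to 26843548, plus strand). It was at 12.5, 18.6 and 11.2 TPM in MA9-IL-34 libraries, 0.88, 0 and 0.30 TPM in MA9-c-Kit+ libraries and 0.23, 0 and 0.45 TPM in MA9-c-Kit- libraries. The coefficient of variation in MA9-IL-34 cells was 28.0%, and the value of 0.88 TPM was the highest that any of the 10 genes had in an MA9 library. The Cyp2a5 level is uncertain in its share between paralogs: of the 1964 words of 50 bases in its longest transcript, 40.8% were also present in Cyp2a4 or the pseudogene Cyp2a21-ps. Cyp2a4, whose protein was 97.6% identical to Cyp2a5, was listed at 0 in all MA9-IL-34 libraries and at 0.37 TPM at most elsewhere.

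Arhgef38 encodes a guanine nucleotide exchange factor (chromosome 3, 133112278 to 133234949, minus strand). It had the second highest level of the 10, at 44.1, 32.8 and 35.3 TPM in MA9-IL-34 libraries, 0.61, 0.30 and 0.48 TPM in MA9-c-Kit+ libraries and 0.13, 0.37 and 0.52 TPM in MA9-c-Kit- libraries. Unlike Ces1d and Col6a3, Arhgef38 was above 0 in all 6 MA9 libraries. Rgs5 encodes an activator of the GTPase of G protein alpha subunits, best known as a marker of pericytes (chromosome 1, 169655501 to 169695813, plus strand). It was at 10.9, 16.5 and 16.6 TPM in MA9-IL-34 libraries, 0.63, 0.11 and 0.04 TPM in MA9-c-Kit+ libraries and 0.02, 0 and 0.01 TPM in MA9-c-Kit- libraries. On the log2(TPM + 1) scale the difference from MA9-c-Kit+ cells was 4.71 for Arhgef38 and 3.64 for Rgs5, and from MA9-c-Kit- cells it was 4.84 for Arhgef38 and 3.93 for Rgs5.

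Col6a3 encodes the alpha 3 chain of collagen VI, which in connective tissue assembles with the alpha 1 and alpha 2 chains (chromosome 1, 90765923 to 90843971, minus strand). It was at 24.9, 14.3 and 16.7 TPM in MA9-IL-34 libraries, 0, 0.01 and 0.01 TPM in MA9-c-Kit+ libraries and 0.02, 0 and 0.01 TPM in MA9-c-Kit- libraries. Sdk1 encodes sidekick 1, a homophilic adhesion molecule of the immunoglobulin superfamily that sorts synapses in the mouse retina (chromosome 5, 141241490 to 142215586, plus strand). Its levels were 13.5, 13.0 and 15.5 TPM in MA9-IL-34 libraries, 0.01, 0 and 0.02 TPM in MA9-c-Kit+ libraries and 0.01, 0.04 and 0.02 TPM in MA9-c-Kit- libraries. These 2 genes had the lowest levels of the 10 in MA9 cells, at 0.02 TPM or less for Col6a3 and 0.04 TPM or less for Sdk1. Col6a3 varied most among the MA9-IL-34 libraries, with a coefficient of variation of 29.7%. Sdk1 was by far the longest gene of the 10, spanning 974 kb, where the other 9 spanned 8.24 to 123 kb.

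Nme9 encodes a protein with a thioredoxin and nucleoside diphosphate kinase domains, related to proteins of cilia and sperm tails (chromosome 9, 99451475 to 99474751, plus strand). It was at 10.7, 13.7 and 10.9 TPM in MA9-IL-34 libraries, 0.84, 0.67 and 0.41 TPM in MA9-c-Kit+ libraries and 0, 0.11 and 0.10 TPM in MA9-c-Kit- libraries. AU017674 is annotated as a long intergenic noncoding RNA (chromosome 13, 70149800 to 70205972, plus strand). It was at 12.2, 10.03 and 11.6 TPM in MA9-IL-34 libraries, 0.06, 0 and 0.03 TPM in MA9-c-Kit+ libraries and 0.26, 0.34 and 0.05 TPM in MA9-c-Kit- libraries. Nme9 had the smallest log2(TPM + 1) difference from MA9-c-Kit+ cells among the 10, at 2.96, and AU017674 the smallest from MA9-c-Kit- cells, at 3.34. In MA9-IL-34 cells the order of the means was Ces1d, Arhgef38, Gal3st1, Lpcat2, Col6a3, Rgs5, Cyp2a5, Sdk1, Nme9 and AU017674. Only Ces1d and Arhgef38 were separated from the genes on either side by library ranges that did not overlap, and from Gal3st1 to AU017674 the ranges of neighbours in this order overlapped.

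The trace levels in the 2 kinds of MA9 cells were compared, since the rule treats both alike. In 3 of the 10 genes, Gal3st1, Rgs5 and Nme9, the 3 MA9-c-Kit+ libraries lay above the 3 MA9-c-Kit- libraries without overlap, and none of the 10 showed the reverse. Of the 10486 genes that were under 1 TPM in each MA9 library and above 0 in at least 1, 4.13% had this order and 4.67% the reverse. Compared as same-numbered pairs, the same 3 genes were higher in the MA9-c-Kit+ library of all 3 pairs, as were 7.74% of the low genes, and AU017674 was lower in all 3 pairs, as were 8.35%. All these levels were low. In MA9-c-Kit+ cells the means were 0.49 ± 0.33 TPM for Gal3st1, 0.26 ± 0.32 TPM for Rgs5 and 0.64 ± 0.22 TPM for Nme9, against 0.03 ± 0.03, 0.01 ± 0.01 and 0.07 ± 0.06 TPM in MA9-c-Kit- (SD over 3 libraries). An exact permutation test of 3 libraries against 3 cannot give a two-sided p below 0.1, nor a permutation test of 3 pairs one below 0.25.

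Near the thresholds the values ran on without a gap. Of the autosomal genes with the same MA9 limit, 9 were at 5 to 10 TPM in their lowest MA9-IL-34 library, and the closest was the homeobox gene En2 with 9.91, 11.4 and 10.9 TPM in MA9-IL-34 libraries and 0.29 TPM at most in MA9 libraries. It was followed by B3galt5, Tdrkh, Gm14295 and Espnl with lowest MA9-IL-34 values of 9.48, 8.30, 7.50 and 6.81 TPM. On the other side, 7 autosomal genes at 10 TPM or more in MA9-IL-34 cells had a highest MA9 value of 1 to 2 TPM. The closest of these were the monoamine transporter gene Slc18a1 with 1.19 TPM, Platr27 with 1.25 TPM, AC132353.1 and Gm14305 with 1.26 TPM each and Slc22a17 with 1.32 TPM. Just inside the limits were AU017674, whose lowest MA9-IL-34 value was 10.03 TPM, and Cyp2a5 with its MA9 value of 0.88 TPM. By the same limits, 0 autosomal genes were on only in MA9-c-Kit+ cells, 23 only in MA9-c-Kit- cells, and 9 were off only in MA9-IL-34 cells.

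**Figure D2:**
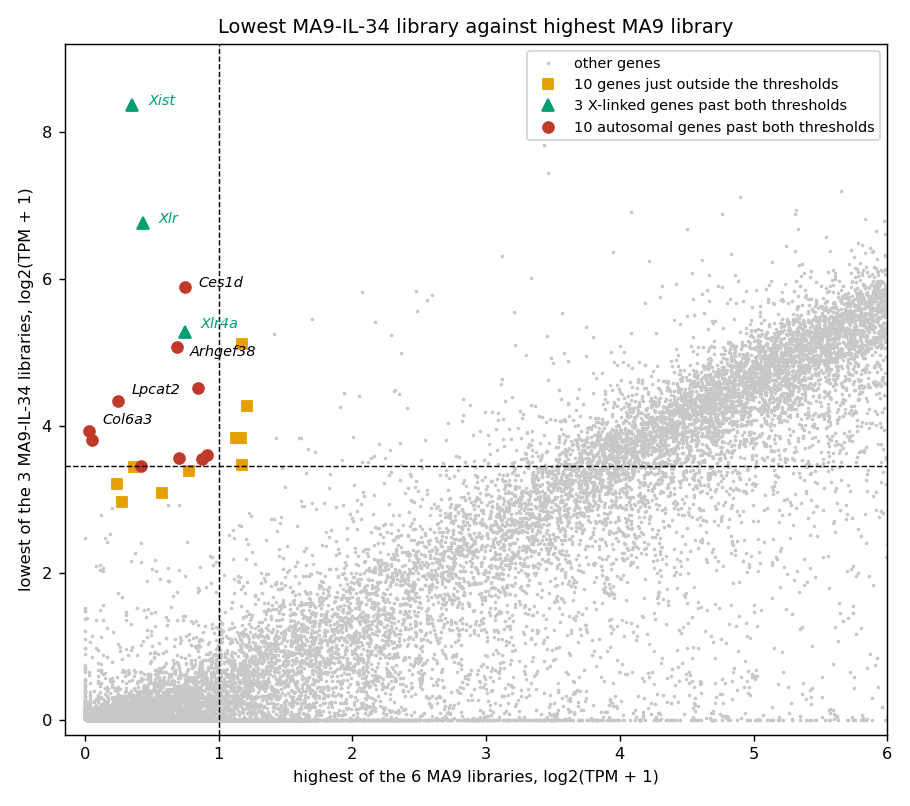
For each gene the lowest of its 3 MA9-IL-34 libraries (vertical axis) is plotted against the highest of its 6 MA9 libraries (horizontal axis, drawn to 6), both as log2(TPM + 1), with dashed lines at 10 TPM and 1 TPM. The 10 genes (circles) and the X-linked Xist, Xlr and Xlr4a (triangles) lie in the upper left field, and the 10 nearest autosomal genes outside it (squares) border it.

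The pattern most like that of the 10 was sought over all genes by the gap on log2(TPM + 1) between the lowest of the 3 MA9-IL-34 libraries and the highest of the 6 MA9 libraries. The largest gap belonged to Xist, at 8.02, and the next to Xlr, at 6.33, a gene of the X-linked lymphocyte-regulated family with 152, 135 and 108 TPM in MA9-IL-34 libraries and 0.35 TPM at most in MA9 libraries. Ces1d came next with a gap of 5.15, ahead of Xlr4a with 4.53. These X-linked genes met the same limits, so that 13 genes met them over all chromosomes. The other most similar genes were the noncoding RNA Gm42047, Hdc, which makes histamine, AC132353.1, Mtus2, Lin28a, which blocks let-7 maturation, the adhesion receptor Vcam1, and Il22ra2, a decoy receptor for IL-22. Their gaps were 3.36 to 4.40, and each reached more than 1 TPM in some MA9 library. Hdc, for example, was at 234, 173 and 206 TPM in MA9-IL-34 libraries, 3.85, 10.02 and 2.76 TPM in MA9-c-Kit+ libraries and 0.14, 0.36 and 0.18 TPM in MA9-c-Kit- libraries. Of the 10 genes, Nme9 had the smallest gap, 2.67, which ranked 34th over all genes.

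In several tissues these genes mark cell types other than leukemia cells, so the defining genes of those cells were examined in the same libraries. Of 9 hepatocyte genes, Ttr, Serpina1a, Fgb and Tat were at 0 in all 9 libraries, Alb was at 0 in the MA9-IL-34 libraries, and the list summed to 0.92 to 1.67 TPM in MA9-IL-34, 1.57 to 1.82 TPM in MA9-c-Kit+ and 1.47 to 1.83 TPM in MA9-c-Kit- libraries. The 5 adipocyte genes summed to 0.76 TPM at most in MA9-IL-34 libraries, 5 genes of kidney tubules to 0.24 TPM and 5 genes of ciliated cells to 0.42 TPM. Of the genes of fibroblasts and marrow stroma, Col1a1, Col1a2, Col3a1, Pdgfra, Dcn and Lum were at 0.22 TPM or less and Cxcl12 at 0.72 TPM or less in MA9-IL-34 libraries, and Lepr, the only one above 1 TPM, was at 27.8, 28.6 and 24.5 TPM there, within the range of 23.1 to 50.1 TPM in MA9-c-Kit+ libraries. The sum of 5 genes of myelinating glia was 40.5 to 44.3 TPM in MA9-IL-34, 26.2 to 36.3 TPM in MA9-c-Kit+ and 40.5 to 53.5 TPM in MA9-c-Kit- libraries, nearly all from Mbp and Mag, while Mog was at 0 in all libraries. Mag alone was at 20.5, 19.9 and 21.2 TPM in MA9-IL-34 libraries and 11.8 TPM at most in MA9 libraries.

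Beside Rgs5, 9 genes of pericytes and smooth muscle were examined, of which 2, Pdgfrb and Acta2, averaged 1 TPM or more in MA9-IL-34 cells. In MA9-c-Kit+ cells 1 of the 9 did so and in MA9-c-Kit- cells 2. Pdgfrb, the receptor of PDGF-B, was at 11.8, 10.5 and 10.5 TPM in MA9-IL-34 libraries, 1.9, 3.2 and 1.5 TPM in MA9-c-Kit+ libraries and 1.56, 1.10 and 1.59 TPM in MA9-c-Kit- libraries, with no overlap. Acta2, a smooth muscle actin gene, was at 2.65, 1.96 and 1.38 TPM in MA9-IL-34 libraries and 1.13 TPM at most in MA9 libraries, also without overlap. Abcc9 and Myh11 did not overlap either, at 0.18 to 0.2 TPM and 0.06 to 0.1 TPM in MA9-IL-34 libraries and 0.03 TPM and 0.04 TPM at most in MA9 libraries. These 2 were near 0 in every library. Over all 55536 genes, 3.89% had all MA9-IL-34 libraries above all MA9 libraries. Of the other pericyte and smooth muscle genes, Higd1b was at 0 in all 9 libraries, Cspg4 and Notch3 were at 0 in the MA9-IL-34 libraries, and Kcnj8 and Des were at 0.22 TPM or less there. The 9 genes summed to 12.3 to 14.9 TPM in MA9-IL-34, 1.99 to 3.29 TPM in MA9-c-Kit+ and 2.31 to 3.1 TPM in MA9-c-Kit- libraries. The 7 genes of mast cells and basophils, led in MA9-IL-34 cells by Hdc, summed to 224 to 308 TPM in MA9-IL-34 libraries, 42.4 to 69.6 TPM in MA9-c-Kit+ libraries and 19.8 to 36.5 TPM in MA9-c-Kit- libraries, while Fcer1a, Tpsb2 and Cma1 were at 0 in all 9 libraries. Among them Cpa3 was at 47.1, 11.3 and 16.5 TPM in MA9-IL-34 libraries, 1.8, 10.7 and 1.0 TPM in MA9-c-Kit+ libraries and 1.74 TPM at most in MA9-c-Kit- libraries, while the MA9-IL-34 libraries overlapped the MA9-c-Kit+ ones in Mcpt8 and Ms4a2. The 6 macrophage genes summed to 106 to 124 TPM in MA9-IL-34, 15.5 to 51.9 TPM in MA9-c-Kit+ and 49.1 to 88.0 TPM in MA9-c-Kit- libraries. Vcam1 alone was at 55.8, 70.4 and 63.6 TPM in MA9-IL-34 libraries and 3.21 TPM at most in MA9 libraries. Adgre1 in MA9-IL-34 libraries overlapped both MA9 groups, and C1qa, C1qb and C1qc were at 4.67 TPM or less in MA9-IL-34 libraries. The part of other cell types in the levels of the 10 genes was not tested.

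The promoters of 8 of the 10 genes were found in the RefSeq table of GRCm38.p6, which holds 250 bases before and 50 bases after each start site, and the start site nearest to the GENCODE start was used. The 100 bases before the start are shown for the 6 genes whose stretch held a core promoter motif, so that the different promoter types can be seen. Capitals mark the TATA box (TATAAA), the CCAAT box (CCAAT) and the GC box (GGGCGG), each on either strand, and the sequences run 5′ to 3′ on the strand of the gene.
Arhgef38: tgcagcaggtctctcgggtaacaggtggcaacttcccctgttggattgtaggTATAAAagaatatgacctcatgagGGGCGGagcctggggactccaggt
Cyp2a5: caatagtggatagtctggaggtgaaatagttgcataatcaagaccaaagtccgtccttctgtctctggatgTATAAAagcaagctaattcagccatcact
Lpcat2: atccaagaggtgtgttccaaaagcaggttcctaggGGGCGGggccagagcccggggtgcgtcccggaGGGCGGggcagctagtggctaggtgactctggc
Gal3st1: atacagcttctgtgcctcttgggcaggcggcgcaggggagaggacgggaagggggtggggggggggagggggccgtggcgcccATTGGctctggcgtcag
Rgs5: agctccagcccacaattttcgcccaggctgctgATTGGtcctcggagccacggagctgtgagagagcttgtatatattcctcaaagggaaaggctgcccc
Sdk1: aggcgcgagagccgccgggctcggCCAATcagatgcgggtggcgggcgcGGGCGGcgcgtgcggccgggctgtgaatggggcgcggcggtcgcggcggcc
These stretches are chr3:133234950-133235049 (minus strand) for Arhgef38, chr7:26835239-26835338 for Cyp2a5, chr8:92855233-92855332 for Lpcat2, chr11:3983536-3983635 for Gal3st1, chr1:169655401-169655500 for Rgs5 and chr5:141241434-141241533 for Sdk1, all but the first on the plus strand.

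The promoters did not share one type. Arhgef38 and Cyp2a5 held TATAAA close to the start, Lpcat2 held GGGCGG 2 times, Gal3st1 and Rgs5 held CCAAT on the reverse strand, and Sdk1 held CCAAT and GGGCGG in a stretch dense in CpG. Over the whole 300 bases the GC content was 44.3% for Nme9 to 78.3% for Sdk1, and the number of CpG dinucleotides 2 for Cyp2a5 to 54 for Sdk1, against medians of 52.7% and 7 over the 32851 promoters of the table. TATAAA was found in 3 of the 8 promoters and in 13.6% of all promoters, CCAAT in 4 of 8 and 37.4%, and GGGCGG in 4 of 8 and 35.7%. Motifs that blood cell transcription factors bind were also searched. The PU.1 motif GAGGAA was in 3 of the 8 and in 28.3% of all promoters. The C/EBP motif TTGCNNAA was in 2 of the 8 and in 10.8% of all. A RUNX motif, TGTGGT, was in 1 of the 8, with 16.8% over all promoters. A GATA motif, AGATAA, was in 2 of the 8, with 11.2% over all promoters. Neither the AP-1 motif nor the E-box CACGTG was in any of the 8, with 7.81% and 7.15% over all promoters. Both strands were searched and overlapping matches were counted for each motif. In the 150 bases nearest the start, TATAAA was in 2 of the 8 (6.94% of all promoters), CCAAT in 3 (23.4%) and GGGCGG in 3 (28.8%). There GAGGAA was in 2 (15.7%), TTGCNNAA in 1 (4.79%), and TGTGGT and AGATAA in 0 (8.6% and 4.89%). With 8 promoters these are descriptions of letters in a window and say nothing of a factor. The RefSeq start site of Nme9 lay 4.77 kb inside the GENCODE gene, so its promoter is the least certain of the 8.

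Whether the neighbourhood of the 10 genes changed along with them was asked next, from genes the rule did not choose. Some of these overlap the bodies of the 10. A neighbour was any gene whose body lay within 500 kb of one of the 10, which gave 250 genes, of which 66 were measured well enough for the test. A gene was called at a fold of at least 2 on log2(TPM + 1) and an adjusted p under 0.05 in a limma fit over all 9 libraries. Against MA9-c-Kit+ cells 6 of the 66 neighbours (9.09%) were called higher and 2 (3.03%) lower in MA9-IL-34 cells, where 3.86% and 3.38% of all 13722 tested genes were. Against MA9-c-Kit- cells 11 (16.7%) were called higher and 4 (6.06%) lower, where 11.3% and 12.7% of all tested genes were. For the 66 the median log2 fold change over MA9-c-Kit+ was 0.14, beside 0.01 for all tested genes, and over MA9-c-Kit- it was 0.06, beside 0.06. Both comparisons use the same MA9-IL-34 libraries. With any 1 of these left out, 4 neighbours in place of 8 were called against MA9-c-Kit+ cells, 2 higher and 2 lower. The fall was thus in the genes called higher, from 6 to 2. Of these 6, Mlph, Espnl and Dzip1l passed the filter through the MA9-IL-34 libraries alone and were then not tested. All 3 MA9-IL-34 libraries lay above all 6 MA9 libraries in 27 of the 250 neighbours (10.8%) and in 3.89% of the 55536 genes. The 27 include Capns2 and Gm45472, which overlap Lpcat2 and whose reads cannot be told apart from unspliced Lpcat2 RNA.

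The region of Col6a3 held 3 of the 6 genes called higher against MA9-c-Kit+ cells, out of 7 tested there. Mlph, which links melanosomes to myosin Va, lies 71.1 kb upstream and was at 6.62, 4.35 and 6.56 TPM in MA9-IL-34 libraries, 0.12, 0.10 and 0.07 TPM in MA9-c-Kit+ libraries and 0.06 TPM at most in MA9-c-Kit- libraries (log2 fold change 2.62 over MA9-c-Kit+, standard error 0.19, adjusted p = 3.75e-05). Espnl, an espin-like actin-binding protein gene 478 kb upstream, was at 8.01, 6.81 and 7.42 TPM in MA9-IL-34 libraries and 0.21 TPM at most in MA9 libraries (log2 fold change 2.89 over MA9-c-Kit+, standard error 0.16, adjusted p = 8.11e-06). Espnl is the gene already named for lying just outside the limits. Both Mlph and Espnl passed the filter through the MA9-IL-34 libraries alone. The filter thus favoured calls in this direction, and their p-values are no independent support. Scly, a selenocysteine lyase gene next to it, was at 65.0, 50.8 and 60.8 TPM in MA9-IL-34 libraries, 24.9, 45.5 and 20.4 TPM in MA9-c-Kit+ libraries and 27.6, 28.9 and 26.5 TPM in MA9-c-Kit- libraries. Against MA9-c-Kit+ cells its call (adjusted p = 0.029) did not hold without any 1 of the MA9-IL-34 libraries (adjusted p = 0.116, 0.0585 and 0.109) and without MA9-c-Kit+ replicate 1 or 3 (adjusted p = 0.0978 and 0.0698). The call was also lost without a filter and with only the 2 groups (limma adjusted p = 0.0697 and 0.0632). Median-ratio scaling put Scly under the fold limit (log2 fold change 0.97). The 4 other tested genes of the region, Cops8, Lrrfip1, Ramp1 and Ube2f, were not called in either comparison.

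Around Nme9, 2 of 8 tested genes were called higher against MA9-c-Kit+ cells. Mras, a Ras-related GTPase gene 14.1 kb upstream, was at 5.55, 4.18 and 6.99 TPM in MA9-IL-34 libraries, 1.85, 1.63 and 0.91 TPM in MA9-c-Kit+ libraries and 0.43, 0.07 and 0.22 TPM in MA9-c-Kit- libraries (log2 fold change 1.41 over MA9-c-Kit+, standard error 0.24, adjusted p = 0.00456). Dzip1l, a gene of the ciliary basal body 155 kb downstream, was at 1.44, 1.31 and 1.35 TPM in MA9-IL-34 libraries and listed at 0 in all 6 MA9 libraries. Armc8, 3.62 kb downstream, was called only against MA9-c-Kit- cells, with 30.9, 30.9 and 27.3 TPM in MA9-IL-34 libraries, 18.4, 16.1 and 13.9 TPM in MA9-c-Kit+ libraries and 13.3, 11.8 and 10.6 TPM in MA9-c-Kit- libraries. Against MA9-c-Kit+ cells it was under the fold limit (log2 fold change 0.85, limma adjusted p = 0.00473). Mlph, Espnl and Dzip1l passed the filter through the MA9-IL-34 libraries alone, as the 10 genes did, and without any 1 of those libraries they were not tested.

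Of 20 tested genes near Gal3st1, 1 (5%) was called higher and 2 (10%) lower against MA9-c-Kit+ cells. The shares of all tested genes were 3.86% and 3.38%. Against MA9-c-Kit- cells 2 (10%) were called higher and 4 (20%) lower, beside 11.3% and 12.7% of all tested genes. Tcn2, which encodes the vitamin B12 carrier transcobalamin, lies 51.5 kb upstream and was at 256, 255 and 246 TPM in MA9-IL-34 libraries, 123, 105 and 86.8 TPM in MA9-c-Kit+ libraries and 144, 129 and 143 TPM in MA9-c-Kit- libraries (log2 fold change 1.28 over MA9-c-Kit+, standard error 0.13, adjusted p = 0.000243). Slc35e4, 69 kb upstream, fell to 0.84, 0.51 and 0.64 TPM in MA9-IL-34 libraries, against 2.59, 3.73 and 2.24 TPM in MA9-c-Kit+ libraries and 8.78, 9.28 and 5.48 TPM in MA9-c-Kit- libraries. Hormad2, a gene of meiotic chromosome axes 347 kb downstream, was nearly off at 0.06, 0.20 and 0.17 TPM in MA9-IL-34 libraries, against 47.6, 35.7 and 42.0 TPM in MA9-c-Kit+ libraries and 12.7, 15.3 and 16.8 TPM in MA9-c-Kit- libraries (log2 fold changes -5.22 and -3.79, standard error 0.17 each, adjusted p = 5.03e-07 and 5.99e-07). It thus had the opposite pattern from Gal3st1 on the same chromosome. Pes1, the nearest tested gene at 3.63 kb, was not called, with 95.8, 99.3 and 98.0 TPM in MA9-IL-34 libraries, 99.2, 68.2 and 112 TPM in MA9-c-Kit+ libraries and 53.1, 56.1 and 78.8 TPM in MA9-c-Kit- libraries. Against MA9-c-Kit- cells only, Mtfp1 and Smtn were called higher and Rnf215 and Pla2g3 lower, Smtn not without MA9-c-Kit- replicate 3 (log2 fold change 0.90).

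Ces1d and Lpcat2 are neighbours themselves, 247 kb apart on chromosome 8, and no other gene that lies between or within them reached 1 TPM in any library. Capns2, inside the body of Lpcat2, was at 0.84, 0.75 and 0.41 TPM in MA9-IL-34 libraries, and Gm45472, antisense to Lpcat2, was at 0.62, 0.09 and 0.26 TPM. Mmp2, whose end lies 1.92 kb before the start of Lpcat2 on the same strand, was at 0.09, 0.63 and 0.23 TPM in MA9-IL-34 libraries. All 3 were listed at 0 in the 6 MA9 libraries. Reads of Capns2, on the same strand as Lpcat2, and of Gm45472, on the other strand in a kit that does not mark strand, cannot be told apart from unspliced Lpcat2 RNA. Of 7, 4 and 5 tested genes near Arhgef38, Rgs5 and Sdk1, Gstcd, Nuf2 and Gna12 in that order were called higher, against MA9-c-Kit- cells only. These were 14.3%, 25% and 20%, beside 11.3% of all tested genes, and each share rests on 1 gene. By limma 0 of the 11 tested genes near Cyp2a5 and 0 of the 3 near AU017674 were called. At an unadjusted p under 0.05 there were 0 and 1 against MA9-c-Kit+ cells and 6 and 0 against MA9-c-Kit- cells. The genes next to Cyp2a5 included Cyp2g1, at 0.78, 0.08 and 0.09 TPM in MA9-IL-34 libraries and 0 in the others. Arhgef38 stood beside Ints12, 1.29 kb away, at 31.7, 27.1 and 29.1 TPM in MA9-IL-34 libraries, 14.5, 16.3 and 14.1 TPM in MA9-c-Kit+ libraries and 29.5, 26.5 and 23.4 TPM in MA9-c-Kit- libraries, which was not called. Against MA9-c-Kit+ cells Ints12 was under the fold limit (log2 fold change 0.93, limma adjusted p = 0.00162). So were Gstcd and Gna12 (log2 fold change 0.64 and 0.76, limma adjusted p = 0.0376 and 0.00199).

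**Figure D3:**
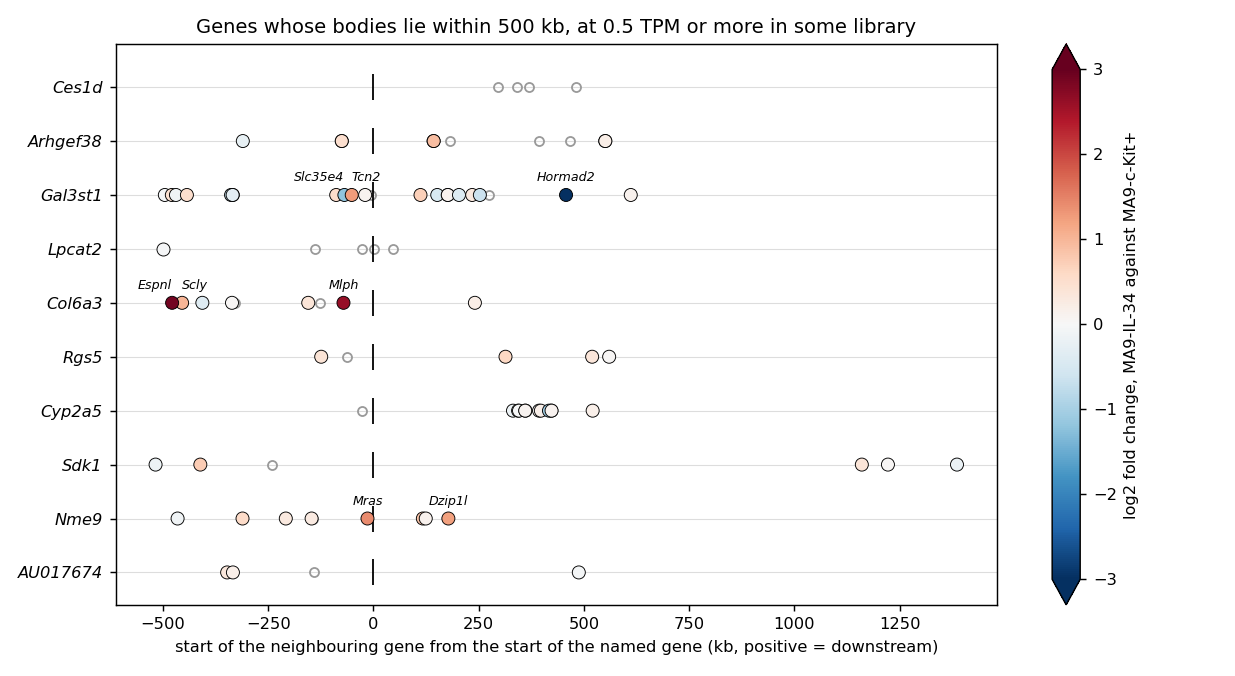
Each row shows the neighbours of 1 of the 10 genes at 0.5 TPM or more in some library, placed by the distance of their start from the start of that gene (vertical tick) in kb. Filled points are tested genes coloured by the log2 fold change of MA9-IL-34 against MA9-c-Kit+ cells (scale ends at 3 and -3, with Hormad2 at -5.22 beyond it), open points were not tested, and names mark the 8 called genes. The genes called higher lie near Col6a3, Nme9 and Gal3st1.

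Other members of the families of the 9 proteins, and genes of their pathways, were then examined, 174 genes in all apart from the 10 themselves. Of these, 95 were tested. Against MA9-c-Kit+ cells 11 (11.6%) were called higher and 3 (3.16%) lower in MA9-IL-34 cells, beside 3.86% and 3.38% of all tested genes. Against MA9-c-Kit- cells 21 (22.1%) were called higher and 19 (20%) lower, beside 11.3% and 12.7%. The counts of the single lists below are of few genes and are to be read beside these shares of all tested genes. The median log2 fold changes were 0.18 and 0.00. Of the 11 called higher, Col6a6, Rgs9, Mttp and Nr1i2 passed the filter through the MA9-IL-34 libraries alone, so the filter favoured calls in this direction. Arhgef37, Col6a5 and Pla2g7, called lower against MA9-c-Kit- cells, passed it through the MA9-c-Kit- libraries alone. With MA9-IL-34 replicate 1, 2 or 3 left out, 9, 9 and 8 of the list genes in place of 14 were called against MA9-c-Kit+ cells. Col6a6, Rgs9, Mttp and Nr1i2 were then not tested, which is part of the fall. The lists were drawn up with earlier results of these libraries known and are no independent evidence of a direction.

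The closest relatives of the 10 genes were mostly silent. Of 18 other carboxylesterase genes, only Ces2g was tested, at 0.28, 3.74 and 0.63 TPM in MA9-IL-34 libraries, and it was not called. The 7 other Ces1 genes, which lie in tandem beside Ces1d, were at 0.04 TPM at most in any library. Ces1g, the closest in protein sequence with 76.1% identity, was at 0 in all MA9-IL-34 libraries, and 1.28% of the words of 50 bases in the Ces1d transcript were shared with other Ces1 genes. The 12 other genes of the cytochrome P450 2A, 2B, 2F, 2G, 2S and 2T groups, the 5 other galactose-3-O-sulfotransferase genes and Sdk2, the only other sidekick gene, did not pass the filter. The closest relatives by protein sequence of Rgs5, Lpcat2 and Nme9 were Rgs4 with 51.4%, Lpcat2b with 57.4% and Nme8 with 39.5% identity, and all 3 were listed at 0 in all 9 libraries. Arhgef37, the closest to Arhgef38 with 31.9%, had the reverse order, at 0.12 TPM or less in MA9-IL-34 libraries, 0.79 TPM or less in MA9-c-Kit+ libraries and 117, 79.0 and 69.4 TPM in MA9-c-Kit- libraries (log2 fold change -6.34 over MA9-c-Kit-, standard error 0.22, adjusted p = 1.99e-07). Arhgef37 passed the filter through the MA9-c-Kit- libraries alone and was not tested without any 1 of them.

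The other collagen VI chain genes did not share one pattern, and all were below Col6a3 in MA9-IL-34 cells. Col6a1 and Col6a2, the partners of the alpha 3 chain in tissue, were at 0.08 TPM at most in any library. The chain genes Col6a4 and Col6a6 rose against both MA9 groups. Col6a4 was at 4.39, 3.58 and 5.06 TPM in MA9-IL-34 libraries, 0.31, 0.06 and 0.13 TPM in MA9-c-Kit+ libraries and 1.16, 0.80 and 0.93 TPM in MA9-c-Kit- libraries (log2 fold changes 2.19 and 1.44, standard error 0.19 each, adjusted p = 9.94e-05 and 0.000273). Col6a6 was at 2.23, 2.49 and 2.52 TPM in MA9-IL-34 libraries, 0.58, 0.44 and 0.29 TPM in MA9-c-Kit+ libraries and 0.04 TPM at most in MA9-c-Kit- libraries (log2 fold changes 1.25 and 1.73, standard error 0.17 each, adjusted p = 0.00125 and 4.80e-05). It was tested only because the MA9-IL-34 libraries passed the filter. Col6a5 had its highest level, 1.48, 2.06 and 1.63 TPM, in MA9-c-Kit- libraries, and was at 0.02 TPM or less in MA9-IL-34 libraries. Of the 16 genes of collagen folding and collagen VI receptors, 8 were tested. Itga1, an integrin chain that binds collagens, fell to 0.20, 0.03 and 0.15 TPM in MA9-IL-34 libraries, against 23.6, 62.0 and 8.36 TPM in MA9-c-Kit+ libraries and 61.6, 68.4 and 35.3 TPM in MA9-c-Kit- libraries (log2 fold changes -4.44 and -5.59, standard error 0.57 each, adjusted p = 0.00109 and 7.36e-05). Against MA9-c-Kit- cells only, the collagen VI receptor gene Antxr2 was called lower (log2 fold change -1.31, adjusted p = 0.000219) and the lysyl hydroxylase gene Plod3 higher (log2 fold change 1.11, adjusted p = 0.0394). Plod3 was not called without MA9-IL-34 replicate 1 or 3, MA9-c-Kit+ replicate 1 or any 1 of the MA9-c-Kit- libraries (adjusted p = 0.0512 to 0.122). The collagen chaperone gene Serpinh1 was at 0.21 TPM at most in any library.

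Around Lpcat2, 13 other genes of PAF synthesis, breakdown and reception were all tested, and 1 was called higher against MA9-c-Kit+ cells. Far2, a fatty acyl-CoA reductase that makes the fatty alcohols of ether lipids, was at 59.5, 58.7 and 66.3 TPM in MA9-IL-34 libraries, 18.9, 9.67 and 10.8 TPM in MA9-c-Kit+ libraries and 2.50, 4.02 and 4.01 TPM in MA9-c-Kit- libraries (log2 fold changes 2.20 and 3.81, standard error 0.25 each, adjusted p = 0.000526 and 4.99e-06). Pla2g4a, the phospholipase that releases the precursor of PAF, was at 32.5, 24.8 and 24.9 TPM in MA9-IL-34 libraries, 17.8, 12.4 and 17.2 TPM in MA9-c-Kit+ libraries and 9.2, 9.25 and 10.6 TPM in MA9-c-Kit- libraries. It was called against MA9-c-Kit- cells (log2 fold change 1.40, adjusted p = 0.000207) and under the fold limit against MA9-c-Kit+ cells (log2 fold change 0.76, adjusted p = 0.0197). Gnpat was called higher, and the PAF receptor gene Ptafr and the PAF hydrolase gene Pla2g7 lower, against MA9-c-Kit- cells only. Pla2g7 was not tested without any 1 of the MA9-c-Kit- libraries. Gnpat fell under the fold limit without MA9-IL-34 replicate 3 or MA9-c-Kit- replicate 2 (log2 fold change 0.98 in both). Of 11 tested genes of the acyltransferase family, 0 were called against MA9-c-Kit+ cells, and Lpcat4, Agpat3 and Agpat4 were lower against MA9-c-Kit- cells. At an unadjusted p under 0.05 limma found 6 of the 11 to differ between MA9-IL-34 and the MA9-c-Kit+ libraries, with log2 fold changes of the family from -0.90 to 0.82.

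Gal3st1 lacked the enzyme before it. Ugt8a, which makes the galactosylceramide that Gal3st1 sulfates, was listed at 0 in all 9 libraries, and Fa2h, which hydroxylates its fatty acid, was at 0.10 TPM at most. Papss2, a synthase of the sulfate donor PAPS, was at 63.3, 43.0 and 46.5 TPM in MA9-IL-34 libraries, 16.6, 26.8 and 12.1 TPM in MA9-c-Kit+ libraries and 17.7, 27.9 and 13.6 TPM in MA9-c-Kit- libraries (log2 fold changes 1.47 and 1.36, standard error 0.32 each, adjusted p = 0.0161 and 0.0067). Against MA9-c-Kit+ cells the call did not hold without MA9-IL-34 replicate 1 or 3 (adjusted p = 0.075 and 0.056) and without MA9-c-Kit+ replicate 1 (adjusted p = 0.0546). The PAPS transporter gene Slc35b2 was called higher, and Psap and Gltp lower, against MA9-c-Kit- cells only.

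Of 18 genes of neutral lipid stores beside Ces1d, 14 were tested and 3 (21.4%) were called higher against both MA9 groups. Of all tested genes, 3.86% were called higher against MA9-c-Kit+ cells and 11.3% against MA9-c-Kit- cells. G0s2, an inhibitor of adipose triglyceride lipase, was at 12.5, 14.5 and 12.5 TPM in MA9-IL-34 libraries, 3.59, 1.14 and 1.95 TPM in MA9-c-Kit+ libraries and 0.20, 0.21 and 0.09 TPM in MA9-c-Kit- libraries (log2 fold changes 2.20 and 3.60, standard error 0.26 each, adjusted p = 0.000691 and 9.70e-06). Mttp, which loads triacylglycerol onto lipoproteins, was at 3.43, 4.0 and 4.07 TPM in MA9-IL-34 libraries, 0.97 TPM at most in MA9-c-Kit+ libraries and 0.64 TPM at most in MA9-c-Kit- libraries. It passed the filter through the MA9-IL-34 libraries alone. Dgat2, which makes triacylglycerol, was at 16.4, 22.8 and 20.9 TPM in MA9-IL-34 libraries, 9.71, 4.83 and 7.72 TPM in MA9-c-Kit+ libraries and 8.51, 4.94 and 8.17 TPM in MA9-c-Kit- libraries. Against MA9-c-Kit+ cells its call (adjusted p = 0.0105) did not hold without MA9-IL-34 replicate 2 or 3 (adjusted p = 0.051 and 0.0537). The lipase gene Pnpla2 was at 65.5, 74.95 and 85.2 TPM in MA9-IL-34 libraries, 80.3, 79.5 and 70.2 TPM in MA9-c-Kit+ libraries and 142, 89.4 and 87.6 TPM in MA9-c-Kit- libraries and was not called. Soat1 and Soat2, which esterify cholesterol, were lower against MA9-c-Kit- cells only, Soat2 not without MA9-IL-34 replicate 3 (adjusted p = 0.05).

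Of 8 tested regulators and redox partners of Cyp2a5, 1 was called higher. Nr1i2, which encodes the xenobiotic sensor PXR, was at 3.35, 1.83 and 2.56 TPM in MA9-IL-34 libraries, 0.06, 0 and 0.08 TPM in MA9-c-Kit+ libraries and 0 TPM in all MA9-c-Kit- libraries (log2 fold change 1.75 over MA9-c-Kit+, standard error 0.20, adjusted p = 0.000527). Nr1i2 entered the test through the MA9-IL-34 libraries alone. Nfe2l2, Keap1, the reductase gene Por and the cytochrome b5 genes were expressed in all groups and not called, and Nr1i3 was at 0.32 TPM at most. Ahr, the aryl hydrocarbon receptor, was lower against MA9-c-Kit- cells, with 0.18, 0.38 and 0.14 TPM in MA9-IL-34 libraries, 0.95, 1.02 and 0.36 TPM in MA9-c-Kit+ libraries and 3.66, 4.19 and 5.47 TPM in MA9-c-Kit- libraries.

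Of 10 tested genes of the RGS family, 2 were called higher and 1 lower against MA9-c-Kit+ cells. Rgs9 was at 4.78, 6.14 and 4.93 TPM in MA9-IL-34 libraries and 0.14 TPM at most in MA9 libraries (log2 fold changes 2.55 and 2.49, standard error 0.17 each, adjusted p = 2.22e-05 and 6.04e-06). It passed the filter through the MA9-IL-34 libraries alone. Rgs8 was at 4.05, 2.85 and 2.72 TPM in MA9-IL-34 libraries, 0.70, 0.23 and 1.21 TPM in MA9-c-Kit+ libraries and 0.14 TPM at most in MA9-c-Kit- libraries. Rgs3 fell to 1.41, 2.90 and 1.85 TPM in MA9-IL-34 libraries, against 11.8, 14.6 and 7.39 TPM in MA9-c-Kit+ libraries and 40.2, 29.6 and 19.1 TPM in MA9-c-Kit- libraries. Rgs18 was called higher and Rgs10 lower against MA9-c-Kit- cells only. Rgs4, next to Rgs5 on chromosome 1, was listed at 0 in all 9 libraries.

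Among 13 tested exchange factors of the ARHGEF series, Arhgef28 rose and Arhgef10l fell against both MA9 groups. Arhgef28 was at 20.9, 15.8 and 17.7 TPM in MA9-IL-34 libraries, 4.91, 4.80 and 6.07 TPM in MA9-c-Kit+ libraries and 0.28, 0.70 and 0.40 TPM in MA9-c-Kit- libraries (log2 fold changes 1.61 and 3.71, standard error 0.18 each, adjusted p = 0.000578 and 1.07e-06). Arhgef10l was at 8.25, 7.53 and 7.25 TPM in MA9-IL-34 libraries, 18.1, 20.2 and 16.0 TPM in MA9-c-Kit+ libraries and 58.5, 44.8 and 37.7 TPM in MA9-c-Kit- libraries. Against MA9-c-Kit- cells only, Arhgef39 was higher and Arhgef11 and Arhgef17 were lower. Arhgef39 was under the fold limit without MA9-c-Kit- replicate 3 (log2 fold change 0.98), and Arhgef11 without MA9-IL-34 replicate 2 or MA9-c-Kit- replicate 1 or 3 (log2 fold change -0.96, -0.95 and -0.98). Of 6 tested genes of the nucleoside diphosphate kinase family, 0 were called by limma against MA9-c-Kit+ cells (1 at an unadjusted p under 0.05), and Nme1, Nme3, Nme4 and Nme6 were higher against MA9-c-Kit- cells, where Nme3 was not called without any 1 of the MA9-IL-34 or MA9-c-Kit- libraries (adjusted p = 0.0516 to 0.0936) and Nme1 not without MA9-c-Kit- replicate 1 or 2 (adjusted p = 0.0509 and 0.0574). Col6a6, Rgs9, Mttp and Nr1i2 passed the filter through the MA9-IL-34 libraries alone and were not tested without any 1 of them.

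**Figure D4:**
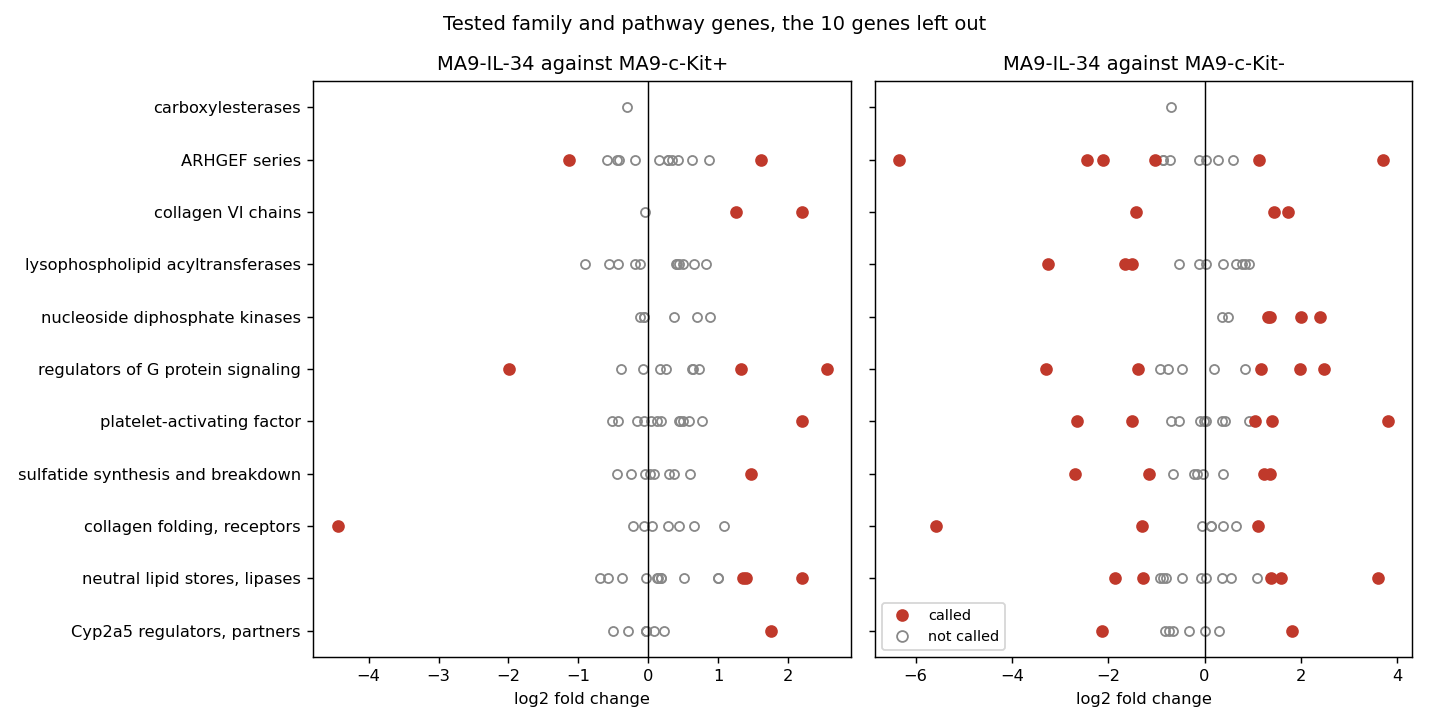
Log2 fold changes of the tested family and pathway genes are shown by list, for MA9-IL-34 against MA9-c-Kit+ cells (left) and against MA9-c-Kit- cells (right). Filled points are called genes (fold of at least 2, adjusted p under 0.05) and open points are not. On the left 14 genes are called, 11 of them to the right of 0, and on the right 40 are called, 21 of them to the right of 0.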

How the data were processed

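Total RNA of sorted cells was measured in 9 libraries, 3 per group. The labels give a TruSeq RNA kit v2; a microarray is named in the study's methods. The deposited table holds 1 value per gene and library, without a named unit. Values have 2 decimals and nearly the same sum in each library, so the deposited values were read as TPM, computed by the authors before deposit. The aligner, the annotation, the build and the counting method are not given in the sources used here. There are no counts, so depth is unknown and no counting interval is given. The column name of the MA9-c-Kit- library with number 3 misses the minus sign and was assigned by its number. All columns were assigned to a sample, with 0 left over.

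Values were transformed as log2(TPM + 1). The filter required 1 TPM or more in 3 or more libraries and left 13722 genes. Group means were fitted over the 9 libraries with limma 3.58.1 (R 4.3.3), its prior variance following the mean level. Benjamini-Hochberg adjustment ran over all tested genes, separately for each of the 2 comparisons. The MA9-c-Kit+ library of each number and its MA9-c-Kit- counterpart deviated together from their group means (correlations 0.202, 0.239 and 0.443), so these 2 groups were also compared as pairs, a choice made after seeing the data. The fit was also run on simulated normal values, with changes added only to genes well above 0 and with no filter. It therefore does not bear on genes near 0 or on calls that depend on the filter. Positions, transcripts and protein identities (global alignment, share of the residues of the named protein) come from GENCODE M21, where all 55536 gene identifiers were found, and promoters from RefSeq. The alternatives were filters, pseudocounts, scaling, only the 2 groups compared, a replicate block, each library left out, other windows and other limits.

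The genes, lists and tests were chosen with earlier results of these data known. By rule the text names the 10 genes, the 5 nearest on each side of the limits, the 10 others with the largest gap, called neighbours and the nearest measured ones, and called family and pathway genes. Other genes were named after their values were seen.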

Additional observations from a re-analysis of the deposited data

How the results depend on the processing

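The number of genes that met the limits was 10. It was 19 with a lower limit of 5 TPM in MA9-IL-34 libraries, 3 with 20 TPM, 17 with a limit of 2 TPM in MA9 libraries, 4 with 0.5 TPM, 13 over all chromosomes, and 10 to 13 with 1 library left out. The log2 differences of the 10 genes depended on the pseudocount, since MA9 values are near 0: with 0.1 in place of 1, that of Lpcat2 over MA9-c-Kit+ was 7.03 in place of 4.42. Depth is unknown, so values near 0 in MA9 cells have no counting limit.

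Against MA9-c-Kit+ cells 993 genes were called in all, 8 of them neighbours and 14 family and pathway genes. Without a minimum fold these were 1772, 13 and 27, and with a filter of 5 TPM the neighbours were 5 and the list genes 8. Without 1 library the counts were 633 to 1130, 4 to 8 and 8 to 20, and 633 was reached without MA9-IL-34 replicate 3. Without an MA9-IL-34 library Mlph, Espnl, Dzip1l, Col6a6, Rgs9, Mttp and Nr1i2 were not tested, which is part of the fall. Windows of 250 kb and 1000 kb gave 5 and 14 neighbours. Against MA9-c-Kit- cells 3297, 15 and 40 genes were called, without a minimum fold 6864, 44 and 64, without 1 library 2833 to 3336, 12 to 20 and 32 to 40, and in the windows of 250 kb and 1000 kb 9 and 27 neighbours. The causes were not tested.

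Same-numbered MA9-IL-34 libraries correlated with MA9-c-Kit+ ones at -0.15, -0.279 and -0.0946 and with MA9-c-Kit- ones at -0.000871, -0.0727 and -0.08, in their deviations from the group means, so the numbers were not taken as pairs in these comparisons. With the replicate block the calls were 1007, 8 and 14 against MA9-c-Kit+ cells and 3319, 16 and 39 against MA9-c-Kit- cells, and Plod3 was no longer called (adjusted p = 0.0528), nor was it without a filter (adjusted p = 0.0913).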
